A study of Mus musculus with 17 samples.

Results

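Genes of the endoplasmic reticulum (ER), the compartment in which secreted and membrane proteins fold, were followed in blood stem and progenitor cells during a response to lipopolysaccharide (LPS). They were chosen by symbol as ER chaperones and unfolded protein response genes: Hspa5, Hsp90b1, Pdia4, Dnajb9, Sdf2l1, Manf, Creld2, Herpud1, Xbp1 and Atf6. These 10 were picked from 35321 gene symbols in the count table, and all 10 were among the 14920 genes with enough counts to test. At 24 h after LPS, 6 of the 10 were higher than in saline-injected mice by 1.84- to 2.79-fold, in a comparison in which 19.1% of all genes tested were called higher, and at 72 h none was called different from saline, with 0.0201% of all genes called. When the interleukin-10 receptor was blocked along with LPS, Hspa5, the main ER chaperone, was called higher than in both LPS alone and saline at 72 h, 1 of the 10 where 15.1% and 13.2% of all genes were called, and both calls were lost when certain single libraries were left out.

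RNA was measured by sequencing of polyadenylated RNA from sorted bone marrow cells named hematopoietic stem and progenitor cells (HSPC), which give rise to all blood lineages. The surface markers of the sort are not given in the sources used here. All mice were wild type and of the inbred strain C57BL/6J, and each was injected into the abdominal cavity. The 5 groups were phosphate-buffered saline (PBS, 5 libraries, titled day 0), LPS for 24 h (3), LPS with an antibody that blocks the IL-10 receptor (anti-IL-10R) for 24 h (3), LPS for 72 h (3) and LPS with that antibody for 72 h (3). LPS is a bacterial outer membrane component that triggers inflammation, and IL-10 is a cytokine that restrains it. The amounts are given as 5 for LPS and 100 for the antibody, in micrograms in one place and in milligrams in another. No group received the antibody without LPS, and ages and sexes are not given in the sources used here. Nothing says whether the libraries of a group came from separate animals, so the p-values measure only the spread between these libraries, which may be technical.

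Proteins that fold badly in the ER draw Hspa5 (also called BiP) away from the sensors IRE1 (gene Ern1), PERK (Eif2ak3) and ATF6, which activates them. IRE1 splices the mRNA of Xbp1 into the form that encodes an active transcription factor, PERK slows translation and favours Atf4, and ATF6 is cut free from the membrane to enter the nucleus. These arms raise chaperones, disulfide isomerases and the machinery that removes misfolded proteins, and cells that make much secretory protein, such as plasma cells and granule-forming myeloid progenitors, depend on them.

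The libraries held 10516722 to 16006001 counts. The TMM factor, which corrects for composition, was 0.947 to 1.12 in 16 libraries and 0.799 in library 1 of LPS at 24 h, where 16431 genes had a count against 17348 and 17554 in the other 2 of that group. HSPC markers were present: Kit, the stem cell factor receptor, lay at 228 to 589 CPM over all libraries, Cd34 at 234 to 848 CPM, and none of the 10 markers fixed for HSPC was at 0 in any group. The summed HSPC markers were 1628 to 2400 CPM in PBS, 1019 to 1175 CPM at 24 h of LPS and 1665 to 2245 CPM at 72 h of LPS. Not all of them moved alike: Ly6a was at 32.6 to 85.2 CPM in PBS and at 108 to 222 CPM at 24 h of LPS.

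Promoters of ER chaperone genes are known for the ER stress response element (ERSE), which ATF6 binds together with NF-Y, so the start regions were searched. RefSeq (GRCm38.p6) promoter sequence was found for 8 of the 10 genes, and Manf and Atf6 were not matched. Windows ran from 250 bases before to 50 bases after the annotated start. The motifs, read on both strands, were ERSE (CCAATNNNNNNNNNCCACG), ERSE-II (ATTGG, any base, then CCACG) and the core of the unfolded protein response element, UPRE (TGACGTG). ERSE occurred in 3 of the genes, Hspa5, Hsp90b1 and Creld2, against 39 of all 32851 promoters (0.119%). ERSE-II occurred in Herpud1 and in 12 of all promoters (0.0365%). The UPRE core occurred in Hspa5 and in 661 promoters (2.01%). The 4 genes with a match are shown for the 250 bases before the start, 5′ to 3′ on the strand of the gene, with the matched letters in capitals.
Hspa5 (chr2:34771840-34772089, plus strand): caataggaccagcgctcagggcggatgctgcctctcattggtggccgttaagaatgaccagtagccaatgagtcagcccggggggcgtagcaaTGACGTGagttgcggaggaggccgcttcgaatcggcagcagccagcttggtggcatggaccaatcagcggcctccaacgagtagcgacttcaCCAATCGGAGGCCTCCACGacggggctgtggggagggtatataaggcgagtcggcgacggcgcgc
Hsp90b1 (chr10:86705445-86705694, minus strand): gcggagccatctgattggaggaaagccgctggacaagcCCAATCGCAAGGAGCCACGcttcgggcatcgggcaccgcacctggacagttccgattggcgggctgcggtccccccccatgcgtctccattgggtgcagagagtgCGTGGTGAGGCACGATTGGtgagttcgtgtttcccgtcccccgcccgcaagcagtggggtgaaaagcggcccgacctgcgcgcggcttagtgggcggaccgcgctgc
Creld2 (chr15:88819396-88819645, plus strand): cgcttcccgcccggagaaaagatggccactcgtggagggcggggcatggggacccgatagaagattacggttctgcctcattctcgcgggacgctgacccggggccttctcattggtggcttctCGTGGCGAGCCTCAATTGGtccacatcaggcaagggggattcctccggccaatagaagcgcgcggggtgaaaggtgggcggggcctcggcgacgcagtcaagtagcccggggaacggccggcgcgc
Herpud1 (chr8:94386179-94386428, plus strand): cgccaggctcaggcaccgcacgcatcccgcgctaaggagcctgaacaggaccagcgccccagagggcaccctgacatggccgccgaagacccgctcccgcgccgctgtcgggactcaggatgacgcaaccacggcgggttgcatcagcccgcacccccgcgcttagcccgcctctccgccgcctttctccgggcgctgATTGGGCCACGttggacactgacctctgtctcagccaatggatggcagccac

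In Hspa5 the ERSE lay 65 to 47 bases before the start, and the UPRE core lay 157 to 151 bases before it without overlapping the ERSE. Hsp90b1 held 2 ERSE matches, at 212 to 194 bases on the gene's strand and at 107 to 89 bases on the opposite strand. The Creld2 match, 126 to 108 bases before the start, was also on the opposite strand. In Herpud1 the ERSE-II was 52 to 42 bases before the start. GENCODE places some starts elsewhere: its Hspa5 gene begins at 34771970, ahead of the ERSE at 34772025 to 34772043, so by that annotation the match lies inside the gene. The windows of Pdia4, Dnajb9, Sdf2l1 and Xbp1 held none of these exact letters, which says nothing about looser forms or about sites outside the window. Of the 3 genes with an ERSE, all were among the 6 called higher at 24 h of LPS, where 19.1% of all genes were called higher. Herpud1 with its ERSE-II was not called. Of the genes searched without a match, Sdf2l1 and Pdia4 were called higher too, and Dnajb9 and Xbp1 were not called. Manf, also called higher, had no promoter to search. A match describes letters, and binding was not measured here.

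**Figure D1:**
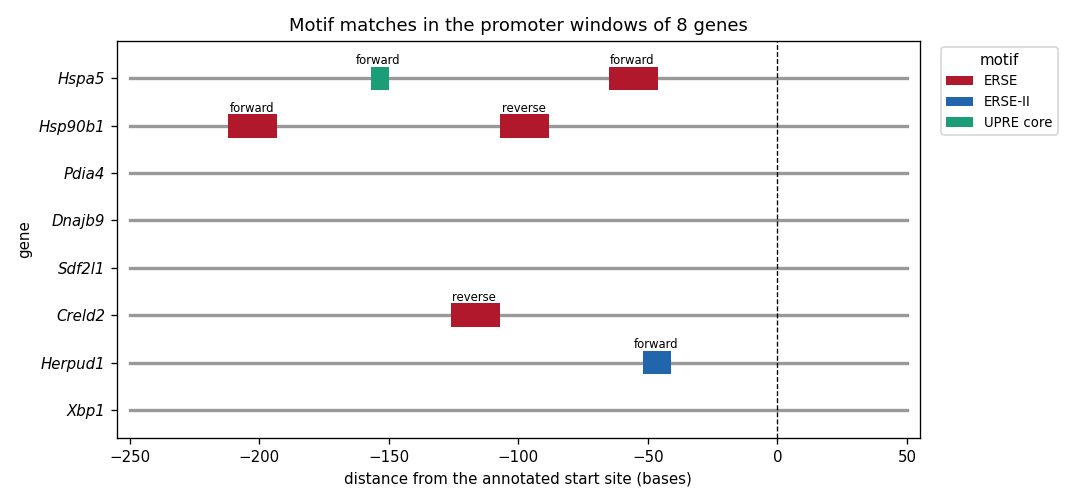
Positions of motif matches in the promoter windows of the 8 matched genes, with distance from the annotated start site in bases on the horizontal axis and 1 line per gene. ERSE is red, ERSE-II blue and the UPRE core green, with the strand of each match written above it; 4 genes hold a match and 4 hold none.

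Levels between genes were compared in PBS as CPM, counts scaled to a common library size, per kilobase of the principal transcript. Hsp90b1, the ER form of Hsp90, was at 299 ± 52.9 (SD, n = 5) and Hspa5 at 214 ± 73.1, and their libraries overlapped. A gap without overlap separated them from Pdia4 at 84.6 ± 13.4, Sdf2l1 at 70.2 ± 23.3, Xbp1 at 67.1 ± 13.9, Manf at 56.4 ± 16.5, Herpud1 at 43.4 ± 7.48 and Creld2 at 35.9 ± 9.01. Each of these 6 overlapped its neighbour in that order. Below them, again without overlap, came Atf6 at 10.9 ± 0.542 and, with no overlap with Atf6, Dnajb9 at 7.95 ± 0.923 CPM per kilobase. Hsp90b1 and Hspa5 were thus the most abundant of the 10 per length, and the sensor Atf6 and the cochaperone Dnajb9 the least.

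**Figure D2:**
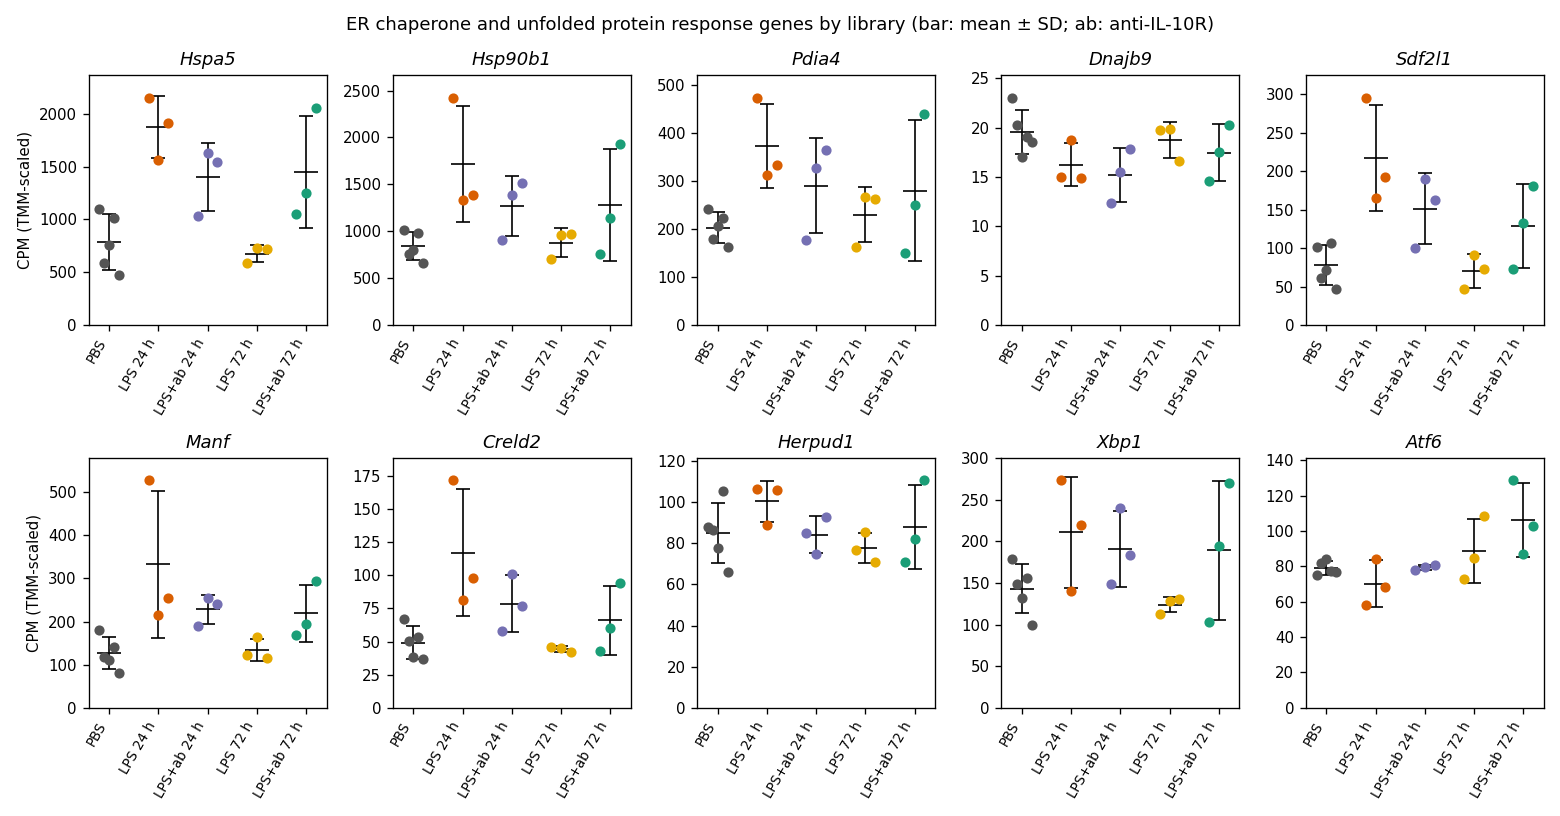
Each panel shows 1 gene, with TMM-scaled CPM on a linear axis from 0 and the 5 groups on the horizontal axis (ab, anti-IL-10R). Points are libraries and bars are mean ± SD (n = 5 for PBS, n = 3 otherwise); in Hspa5 the 3 LPS libraries at 24 h sit at 1565 to 2154 CPM, above all 5 PBS libraries at 473 to 1100.2 CPM.

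LPS for 24 h was compared with PBS first, to see the early response. By edgeR's quasi-likelihood test with Benjamini-Hochberg adjustment over all 14920 genes, called below an adjusted p of 0.05, 6 of the 10 genes rose, 0 fell and 4 were not called. Of all genes tested, 37.6% were called and 19.1% were called higher in this comparison (2849 of 5616 calls, and 2030 of 5520 with upper-quartile scaling). For the same 6 genes every LPS library was above every PBS library; 42.8% of all genes had no overlap in either direction. The median log2 difference over the 10 genes was 0.95, beside -0.03 over all genes. Markers differed as well: the HSPC markers summed to less in each library of LPS alone at 24 h (1019 to 1175 CPM) than in any PBS library (1628 to 2400 CPM). Among them Cd34, Flt3, Procr, Mecom, Hlf and Meis1 were lower without overlap, and Kit, Slamf1 and Gata2 overlapped. Ly6a was higher without overlap, at 108 to 222 CPM against 32.6 to 85.2 CPM in PBS. The 10 neutrophil granule markers, none at 0, summed to 2563 to 15478 CPM in PBS and 9220 to 18922 CPM at 24 h of LPS. Markers of dendritic cells (8, with Cd209a at 0 at 24 h of LPS) summed to 964 to 1376 CPM in PBS and 447 to 669 CPM at 24 h of LPS. Flt3 and Irf8 among them are also known in progenitors. Markers of B and plasma cells (11, none at 0 in all libraries of either group) summed to 418 to 1426 and 78.6 to 107 CPM. Among these, Tnfrsf17 was at 0 to 0.0687 CPM at 24 h of LPS. Flt3 is counted in both the HSPC and the dendritic list, and Bst2 of the latter was higher at 24 h of LPS without overlap (153 to 397 against 60.9 to 132 CPM). Sums of the monocyte and macrophage list overlapped (650 to 3043 CPM in PBS, 404 to 781 CPM with LPS). In it, Csf1r, Adgre1, Mrc1, C1qa, C1qb, C1qc, Vcam1 and Axl were lower without overlap, and Cd68, Ly6c2, Ccr2 and Cd14 overlapped. Erythroid, megakaryocyte, and T and NK cell sums overlapped too. Of the erythroid genes, Gata1, Klf1, Epor and Car1 were higher without overlap, Hba-a1, Hbb-bs and Hbb-bt lower, and the rest overlapped. The part of these markers in the results was not tested, and in bulk samples fewer cells of a type and less RNA per cell cannot be told apart.

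Hspa5 (GRCm38 chr2:34771970-34777547), the Hsp70 of the ER lumen and the regulator of the sensors, had 1100.2, 592, 756, 1016 and 473 CPM in the 5 PBS libraries. At 24 h it had 2154, 1565 and 1909.6 CPM with LPS and 1034, 1631 and 1540.3 CPM with LPS plus antibody. At 72 h it had 583, 729 and 719 CPM with LPS and 1054, 1245 and 2053 CPM with LPS plus antibody. The LPS libraries at 24 h were all above PBS, those at 72 h lay inside the PBS range, and the antibody libraries at 72 h were all above those of LPS alone. The mean was 787 ± 268 CPM (SD, n = 5) in PBS and 1876 ± 296 CPM (SD, n = 3) at 24 h of LPS, a rise of 2.38-fold. On the log2 scale the difference was 1.25 ± 0.27 (SE, adjusted p = 0.00249) by edgeR's quasi-likelihood test.

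Hsp90b1 (chr10:86690840-86705509), also called Grp94, is the ER Hsp90 that matures integrins and Toll-like receptors, including the LPS receptor Tlr4. Its PBS libraries had 1014, 762, 804, 981 and 662 CPM, against 2425, 1330.3 and 1385 CPM after 24 h of LPS. With antibody, the 24 h libraries had 911, 1389.9 and 1510.3 CPM, of which the first lay inside the PBS range. The 72 h values were 703, 963 and 967 CPM with LPS and 758, 1139.9 and 1933 CPM with LPS plus antibody. The increase at 24 h of LPS was 2.03-fold, a log2 difference of 1.02 ± 0.27 (SE, adjusted p = 0.00944) by edgeR. Library 1 of LPS at 24 h was the highest of all 17, and without it the log2 difference was 0.70 with an adjusted p of 0.0885 by edgeR. The annotated gene Gm15344 overlaps Hsp90b1 on the same strand over 977 bases and had 10987 counts in all beside 262400 for Hsp90b1, so some reads could have been assigned to either.

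Pdia4 (chr6:47796141-47813430), a protein disulfide isomerase, had 242, 179.9, 207, 223 and 163 CPM in PBS and 475, 313 and 334 CPM after 24 h of LPS. With antibody at 24 h it had 178, 329 and 364 CPM. At 72 h the values were 163, 266 and 262 CPM with LPS and 149.8, 251 and 441 CPM with LPS plus antibody, a range wider than that of PBS. The 1.84-fold increase at 24 h of LPS (log2 0.88, SE 0.30, adjusted p = 0.0285 by edgeR) was the smallest of the 6 called. It was no longer called without library 1 of LPS at 24 h (adjusted p = 0.150), PBS library 2 (0.0587) or PBS library 5 (0.0598), nor with upper-quartile scaling (0.0518), each by edgeR.

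The 2 cochaperones of Hspa5 differed from each other. Sdf2l1 (chr16:17130138-17132383), which works with ER J-domain proteins to keep clients soluble, had 102, 61.2, 71.5, 107 and 47.4 CPM in PBS and 296, 165 and 192 CPM after 24 h of LPS. With antibody at 24 h it had 99.8, 189.8 and 163 CPM, and at 72 h it had 46.4, 91.1 and 72.6 CPM with LPS and 72.2, 133 and 181 CPM with LPS plus antibody. It showed the greatest increase of the 10 genes at 24 h of LPS, 2.79-fold (log2 1.48, SE 0.33, adjusted p = 0.00303 by edgeR), with all 3 libraries above PBS. Dnajb9 (chr12:44205559-44210326), the J-domain protein ERdj4 that directs Hspa5 to IRE1, ranged over 16.98 to 23.1 CPM in PBS and 14.9 to 18.7 CPM after 24 h of LPS. With antibody its range was 12.3 to 17.8 CPM at 24 h and 14.5 to 20.3 CPM at 72 h, and for LPS alone at 72 h 16.6 to 19.9 CPM. Its log2 difference at 24 h of LPS was -0.27 (95% interval -0.61 to 0.07, adjusted p = 0.194 by edgeR), and all groups overlapped PBS.

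Manf and Creld2 encode small ER proteins that can be secreted when the ER is stressed. Manf (chr9:106887415-106891979) had 181, 118, 112, 142 and 81.6 CPM in PBS and 528, 214 and 256 CPM after 24 h of LPS. With antibody it had 191, 254 and 240.4 CPM at 24 h and 169, 194 and 294 CPM at 72 h, and with LPS alone at 72 h 123, 164 and 116 CPM. Library 1 of LPS at 24 h stood well above the other 2 of its group, and all 3 were above PBS. The increase was 2.62-fold, log2 1.39 ± 0.28 (SE, adjusted p = 0.00198) by edgeR, and 0.91 on the log2 scale without that library (adjusted p = 0.0225). Its principal transcript overlaps 4930524O07Rik, on the opposite strand, by 433 bases, and that gene had 7213 counts in all beside 44630 for Manf. The strand setting of the counting is not given in the sources used here, so reads from the overlapping bases cannot be assigned to 1 of the 2 genes. Creld2 (chr15:88819646-88826683), an ER protein with epidermal growth factor-like domains, had 66.8, 50.8, 38.3, 53.1 and 36.5 CPM in PBS and 172, 81.6 and 98.2 CPM after 24 h of LPS. It had 58.04, 101 and 76.7 CPM with antibody at 24 h, 45.9, 45.1 and 41.8 CPM with LPS at 72 h and 42.9, 60.3 and 94.5 CPM with antibody at 72 h. It rose 2.38-fold at 24 h of LPS (log2 1.25, SE 0.27, adjusted p = 0.00293 by edgeR), again without overlap with PBS.

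Herpud1 (chr8:94386438-94395377), a membrane protein that organises the ubiquitin ligase complex of ER-associated degradation, had the narrowest span of the 10 over the 17 libraries, 1.68-fold from lowest to highest. It had 87.9, 86.7, 77.9, 106 and 65.9 CPM in PBS and 107, 88.9 and 106 CPM after 24 h of LPS. Over the other 3 groups it ranged from 70.7 to 111 CPM. The log2 difference at 24 h of LPS was 0.24 (95% interval -0.09 to 0.58, adjusted p = 0.235 by edgeR). The interval leaves out a doubling on this scale, so a change as large as that of Hspa5 lies outside it.

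Of the 2 transcription factors among the 10, neither was called at 24 h of LPS with all libraries. Xbp1 (chr11:5520659-5525893), the factor activated by IRE1 splicing, had 179, 149, 132, 156 and 99.1 CPM in PBS and 273, 141 and 219 CPM after 24 h of LPS. With antibody it had 149, 239.7 and 184 CPM at 24 h and 103, 194 and 270.1 CPM at 72 h, and with LPS at 72 h 113, 128 and 130.0 CPM. The second LPS library at 24 h lay inside the PBS range and the other 2 above it. The log2 difference was 0.56 (95% interval -0.01 to 1.13, adjusted p = 0.112 by edgeR), so an increase as large as that of Hsp90b1 lies within the interval. Without library 2 of LPS at 24 h, Xbp1 was called (log2 0.79, adjusted p = 0.0427 by edgeR). In that fit 7 of the 10 genes rose, where 2818 of all 15257 genes tested were called higher. Without library 1 the log2 difference of Xbp1 was 0.35 (adjusted p = 0.429 by edgeR). Counts per gene do not separate spliced from unspliced Xbp1 mRNA. Atf6 (chr1:170704674-170867771), the membrane-bound sensor, had 74.9, 81.9, 84.4, 77.3 and 76.99 CPM in PBS, the narrowest PBS spread of the 10 genes relative to its mean. It had 57.9, 84.2 and 68.6 CPM after 24 h of LPS, 77.9, 79.6 and 80.7 CPM with antibody at 24 h, 73.03, 84.9 and 109 CPM with LPS at 72 h and 129, 86.9 and 103 CPM with antibody at 72 h. Its log2 difference at 24 h of LPS was -0.17 (95% interval -0.48 to 0.14, adjusted p = 0.382 by edgeR).

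Hspa5, Sdf2l1, Manf and Creld2 kept their calls at 24 h of LPS in all 8 fits that left out 1 library and in all 7 other planned fits. Without library 1 of LPS at 24 h, these 4 were the genes called, where 1798 of all 15257 genes tested were called higher.

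**Figure D3:**
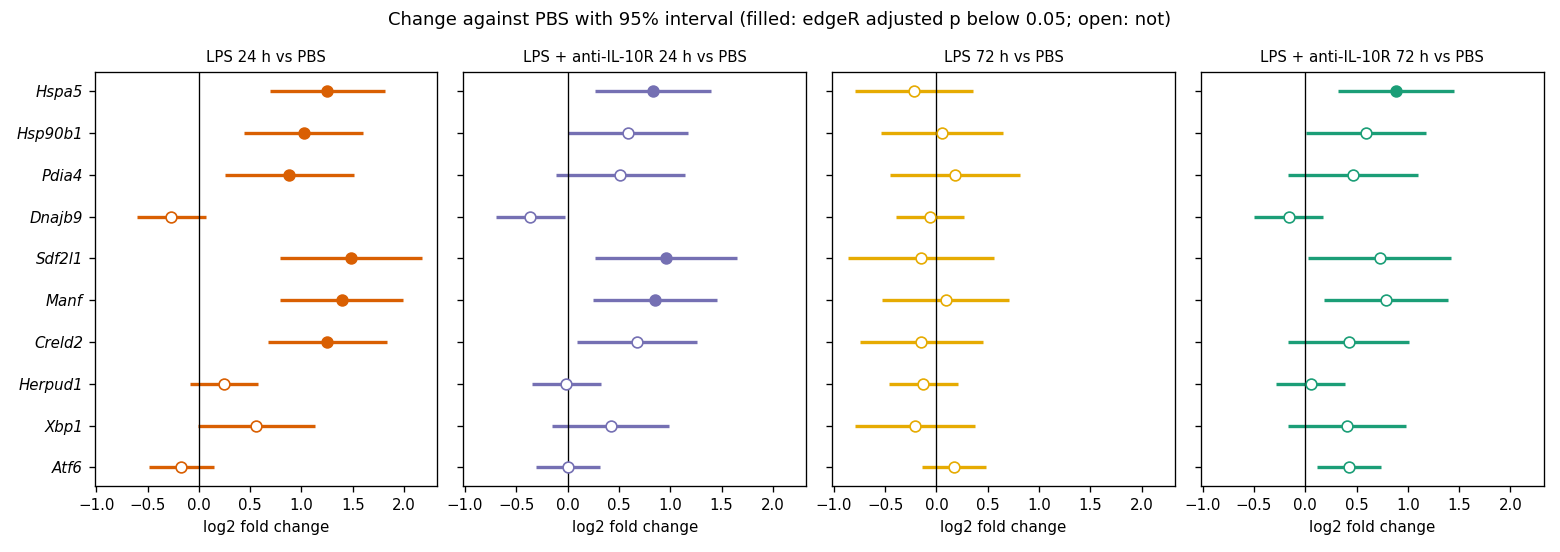
Log2 fold change against PBS with 95% intervals for the 10 genes in the 4 injected groups, each panel a comparison with the same PBS libraries; filled points have an edgeR adjusted p below 0.05. There are 6 filled points at 24 h of LPS and 3 when antibody was added, and 0 and 1 at 72 h.

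LPS for 72 h was compared with PBS to see what remained of the response. None of the 10 genes was called by edgeR, and 0 had an unadjusted p below 0.05. Of all genes, 0.0201% (3 genes) were called. DESeq2 and voom also called 0 of the 10, with 170 and 2170 of all genes called. The log2 differences ran from -0.22 for Hspa5 (95% interval -0.80 to 0.36) to 0.18 for Pdia4 (-0.45 to 0.82), and each gene's libraries overlapped those of PBS.

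The fall from 24 h to 72 h of LPS was itself tested. Hspa5, Hsp90b1, Sdf2l1, Manf and Creld2 fell, 5 of the 10, where 31.1% of all genes were called and 16.4% were called lower (2192 of 4646 calls were higher, and 2783 of 4702 with upper-quartile scaling). In 8 of the 10 genes, Pdia4, Herpud1 and Xbp1 included, the 3 libraries at 72 h were all below the 3 at 24 h, and 45.4% of all genes had no overlap in either direction. Sdf2l1 was 3.10-fold lower at 72 h, a log2 difference of -1.63 ± 0.38 (SE, adjusted p = 0.00500), and Hspa5 was 2.77-fold lower, at -1.47 ± 0.31 (SE, adjusted p = 0.00265), both by edgeR. Creld2 differed by -1.40 ± 0.32 (SE, adjusted p = 0.00428), Manf by -1.30 ± 0.33 (SE, adjusted p = 0.00780) and Hsp90b1 by -0.96 ± 0.32 (SE, adjusted p = 0.0299) in the same edgeR test. Pdia4 at -0.70 (adjusted p = 0.128), Xbp1 at -0.77 (0.0674) and Herpud1 at -0.37 (0.123) were not called by edgeR. Without library 1 of LPS at 24 h, 3 of the 10 were called, where 3489 of all 15257 genes tested were called. Manf (adjusted p = 0.0598 by edgeR) and Hsp90b1 (0.173) were not called in that fit. Hsp90b1 was also not called without library 1 (0.113) or library 2 (0.0558) of LPS at 72 h. Summed markers differed without overlap between these groups for HSPC (1019 to 1175 CPM at 24 h, 1665 to 2245 CPM at 72 h), dendritic cells (447 to 669 and 1165 to 1491 CPM), B and plasma cells (78.6 to 107 and 202 to 483 CPM) and erythroid cells (520.1 to 1046 and 71.02 to 358 CPM). Against the sums of their lists, Ly6a and Gata2 of HSPC and Bst2 of dendritic cells were lower at 72 h without overlap. The part of these markers in the fall was not tested.

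With the IL-10 receptor blocked, LPS for 24 h raised 3 of the 10 genes over PBS, Hspa5, Sdf2l1 and Manf, where 24.2% of all genes were called and 11.7% called higher (1743 of 3605 calls, and 1120 of 3448 with upper-quartile scaling). Their log2 differences were 0.83 ± 0.27 (SE, adjusted p = 0.0346), 0.96 ± 0.33 (SE, adjusted p = 0.0445) and 0.85 ± 0.28 (SE, adjusted p = 0.0410) by edgeR. Creld2 at 0.68 (adjusted p = 0.0827) and Hsp90b1 at 0.59 (0.128) were not called, and Dnajb9 was at -0.36 (0.105), all by edgeR. All 3 calls depended on single libraries. Leaving out PBS library 2, 3 or 5, or library 2 or 3 of LPS plus antibody at 24 h, left 0 of the 10 called, with adjusted p of Hspa5 up to 0.141 by edgeR. In these fits 877 to 3064 of all genes were called.

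The antibody's effect at 24 h was tested against LPS alone, and 0 of the 10 genes and 0% of all genes were called by edgeR. At an unadjusted p below 0.05 there were 0 of the 10 and 273 of all genes, and DESeq2 called 1 gene, none of the 10, and voom 0. The estimates were below 0 for 9 of the 10, from -0.57 for Creld2 (95% interval -1.24 to 0.09) to -0.09 for Dnajb9, with Atf6 at 0.18. The intervals are wide: for Hspa5, at -0.42, it ran over -1.06 to 0.22.

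At 72 h the antibody's effect on LPS was called for Hspa5, 1 of the 10, where 15.1% of all genes were called. Hspa5 had 1451 ± 529.9 CPM (SD, n = 3) with antibody and 677 ± 81.7 CPM (SD, n = 3) without, 2.14-fold higher, with a log2 difference of 1.10 ± 0.31 (SE, adjusted p = 0.0259) by edgeR. The libraries did not overlap for Hspa5 and Manf, 2 of the 10, against 33.2% of all genes, and Manf at 0.70 (adjusted p = 0.148) and Sdf2l1 at 0.88 (0.119) were not called by edgeR. Estimates were above 0 for 9 of the 10, with Dnajb9 at -0.10, and their median was 0.56 beside 0.01 over all genes. Without library 3 of LPS plus antibody at 72 h, the highest of its group for 9 of the 10 genes, Hspa5 differed by 0.76 (adjusted p = 0.104 by edgeR). Its call was also lost without library 1 (0.113) or library 2 (0.0644) of LPS at 72 h. The dendritic cell markers summed to 1165 to 1491 CPM in LPS alone at 72 h and to 643 to 656 CPM with antibody, without overlap. None of them was at 0 in all libraries of either group at 72 h. Their sums overlapped at 24 h, at 447 to 669 and 526 to 767 CPM. At 72 h, Flt3, Irf8, Tcf4, Itgax and Cd209a of this list were lower with antibody without overlap, and Siglech, Ccr9 and Bst2 overlapped. Irf8 (423 to 720 CPM without antibody, 151 to 265 CPM with it) and Flt3 (399 to 619 and 71.4 to 312 CPM) had the highest levels without antibody. Both are also known in progenitors, and Flt3 is in the HSPC list too. The part of these markers in the antibody's effect and in its difference between the times was not tested.

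LPS plus antibody at 72 h was also set against PBS, where 13.2% of all genes were called. Hspa5 was again the gene called among the 10, at 0.88 ± 0.27 (SE, adjusted p = 0.0406) by edgeR, and Manf was at 0.79 (adjusted p = 0.0725). Atf6 was at 0.42 (adjusted p = 0.0615 by edgeR), not called. The Hspa5 call was lost without library 3 of LPS plus antibody at 72 h (log2 0.55, adjusted p = 0.220 by edgeR) and without PBS library 2 (0.0904), 3 (0.0652) or 5 (0.0726).

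Between 24 h and 72 h of LPS plus antibody, 0 of the 10 genes and 0% of all genes were called by edgeR. At an unadjusted p below 0.05 there were 1 of the 10, Atf6 at 0.42, and 635 of all genes, and DESeq2 called 1 gene, none of the 10, and voom 0. Hspa5 differed by 0.05 (95% interval -0.59 to 0.69) where LPS alone gave -1.47.

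Whether the antibody's effect differed between 24 h and 72 h was tested as an interaction, called for 6.35% of all genes and for Hspa5 among the 10. The difference for Hspa5 was 1.52 ± 0.43 (SE, adjusted p = 0.0474) on the log2 scale by edgeR. Sdf2l1 at 1.40 (adjusted p = 0.116), Manf at 1.24 (0.110), Creld2 at 1.15 (0.126) and Hsp90b1 at 0.97 (0.193) were not called by edgeR, though each had an unadjusted p below 0.05. The Hspa5 call lay close to the threshold. It was lost in 8 of 12 fits that left out 1 library and in 5 of 7 other planned fits, with log2 differences of 1.19 to 1.74 over the former and adjusted p by edgeR up to 0.124.

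**Figure D4:**
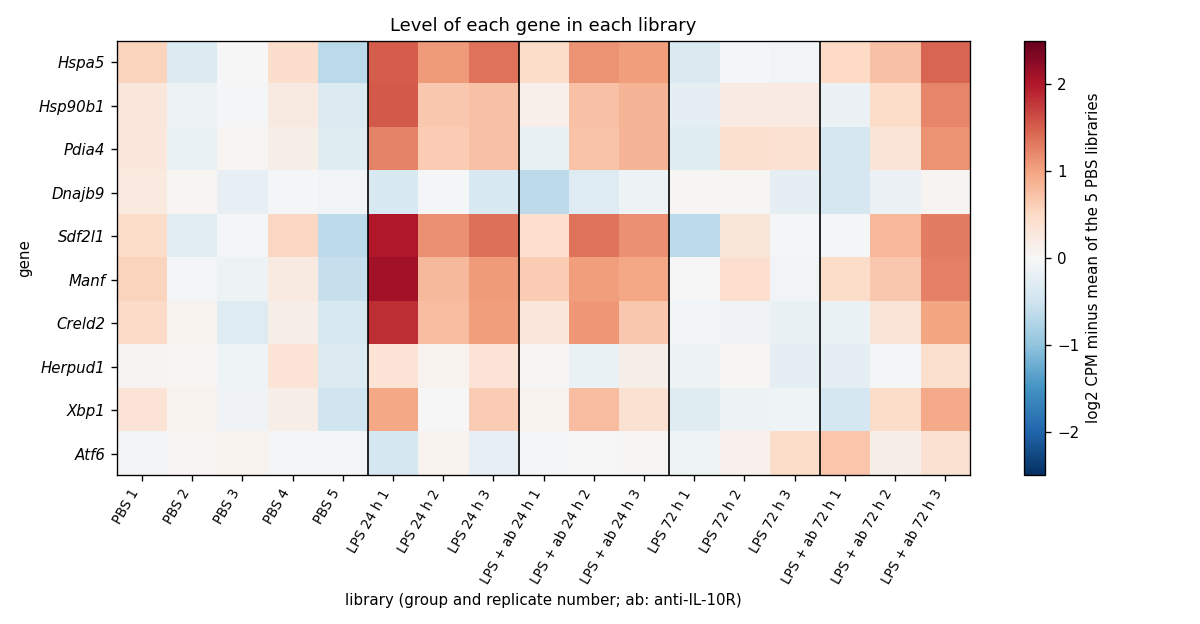
Each row is 1 of the 10 genes and each column 1 of the 17 libraries, grouped by treatment (ab, anti-IL-10R); colour gives log2 CPM minus the mean of the 5 PBS libraries. Red cells run down the columns of LPS at 24 h, with library 1 the deepest, while Dnajb9, Herpud1 and Atf6 stay pale in most libraries.

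Within groups, the libraries were ordered alike for most of the 10 genes. PBS library 1 was the highest of its group for 7 and PBS library 5 the lowest for 8. Library 1 of LPS at 24 h was the highest for 8 and library 2 the lowest for 8. In LPS plus antibody, library 1 was the lowest for 9 at 24 h and for 9 at 72 h. Marker levels shared the low end of this order more often than the high end. In 5 of 5 groups, the library lowest in the mean profile of the 10 genes was also the lowest in summed neutrophil granule markers (Mpo, Elane, S100a8 and 7 others) and the highest in summed HSPC markers. Mpo weighs most in the granule sum, at 1938 to 10107 CPM in PBS, where S100a8 was at 9.26 to 313 CPM. That sum thus says little of the order of markers at low levels. The library highest in the profile was the highest in granule markers in 2 of 5 groups. The granule markers summed to 2563 CPM in PBS library 5 against 5892 to 15478 CPM in the other 4, and to 18922 CPM in library 1 of LPS at 24 h against 9220 and 10960.1 CPM in the other 2. In LPS plus antibody they summed to 5105 CPM in library 1 at 24 h against 11839.7 and 13084 CPM, and to 4028 CPM in library 1 at 72 h against 11464 and 13402 CPM. Erythroid markers summed to 2419 CPM and 1349 CPM in these 2 libraries, each the highest of its group. The part of these markers in the results was not tested.

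Likeness was described over the 17 libraries as Pearson's r on log2 CPM, with no p, since libraries of a group share treatment. Hsp90b1 followed the mean of the other 9 genes most closely (r = 0.976), then Sdf2l1 (0.963), Hspa5 (0.937), Manf (0.929), Creld2 (0.925), Pdia4 (0.905), Xbp1 (0.896) and Herpud1 (0.716). Atf6 (-0.33) and Dnajb9 (-0.19) ran against it. After subtraction of group means, which leaves the spread between libraries of a group, Xbp1 kept an r of 0.892 and Dnajb9 had 0.479, while Atf6 had -0.37. Of all other tested genes, the 5 most like the mean profile of the 10 were Pdia3 (0.969) and Pdia6 (0.960), disulfide isomerases, Lman2 (0.964), a cargo lectin, Srprb (0.959), a subunit of the signal recognition particle receptor, and 4930524O07Rik (0.961), the gene that overlaps Manf on the opposite strand.

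Other genes of the pathway were counted in 6 ER lists, given here by the number called by edgeR at 24 h of LPS against PBS. The shares of all genes in that comparison were 37.6% called and 19.1% called higher. Of 25 ER chaperones and folding enzymes, 13 rose and 0 fell, with a median log2 difference of 0.46 beside -0.03 over all genes. Fkbp11, an ER prolyl isomerase, went from 12.6 ± 5.37 to 45.4 ± 28.1 CPM (log2 1.85, SE 0.40, adjusted p = 0.00268), and Calr, the lectin chaperone calreticulin, from 1588 ± 453 to 3560.4 ± 979.9 CPM (log2 1.16, SE 0.25, adjusted p = 0.00260). Of 23 genes for entry into the ER and N-glycosylation, 17 rose and 0 fell (median 0.58), among them Ssr2, a translocon-associated subunit, at 0.93 ± 0.23 (SE, adjusted p = 0.00573), and Rpn1 of the oligosaccharyltransferase at 0.90 ± 0.20 (SE, adjusted p = 0.00341). Of 19 genes for transport between ER and Golgi, 11 rose and 0 fell (median 0.34), with Tmed2, a cargo receptor, at 0.78 and Sar1b, the small GTPase of COPII coats, at 0.76. Of 20 genes of ER-associated degradation, 5 rose and 1 fell (median 0.19), so the number that rose was near the share of all genes.

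In that degradation list, Selenos, a selenoprotein of the retrotranslocation complex, rose by 0.76 and Ube2g2, a ubiquitin-conjugating enzyme, by 0.60 on the log2 scale. Derl3, a derlin, fell from 4.19 ± 1.97 to 0.929 ± 0.435 CPM (log2 -2.15, SE 0.47, adjusted p = 0.00308 by edgeR). B and plasma cell markers summed to 418 to 1426 CPM in PBS and 78.6 to 107 CPM at 24 h of LPS, over 11 genes. None of these was at 0 in all libraries of either group, though Tnfrsf17 had a median of 0 at 24 h of LPS. The part of these markers in the Derl3 value was not tested.

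Sensor genes were counted on their own. Of 9 sensor and processing genes tested, 0 rose and 2 fell at 24 h of LPS. In that comparison 37.6% of all genes were called and 19.1% were called higher, so 2 calls of 9 did not exceed the share of all genes. Ern1, which encodes IRE1, fell from 191 ± 72.5 to 87.9 ± 18.6 CPM, a log2 difference of -1.12 ± 0.29 (SE, adjusted p = 0.00781) by edgeR. Creb3l2, a membrane-bound transcription factor related to ATF6, fell by 0.49 (adjusted p = 0.0292 by edgeR). Eif2ak3 (PERK) at -0.33 (0.103) and Atf6b at 0.46 (0.0718) were not called. At 72 h of LPS, Ern1 was at 182 ± 63.2 CPM, 1.05 ± 0.31 (SE, adjusted p = 0.0200) above 24 h by edgeR.

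Of 14 genes of the PERK branch and the integrated stress response, 6 rose and 0 fell at 24 h of LPS (median 0.59). Asns, asparagine synthetase and a target of ATF4, went from 30.9 ± 7.14 to 89.3 ± 24.6 CPM (log2 1.53, SE 0.35, adjusted p = 0.00391 by edgeR), and Cebpb, a transcription factor of emergency myelopoiesis, from 6.95 ± 2.49 to 19.7 ± 7.20 CPM (log2 1.50, SE 0.33, adjusted p = 0.00299). Atf4 itself was at 0.79 ± 0.22 (SE, adjusted p = 0.0105) and Ddit3, which encodes the stress factor CHOP, at 0.34 (0.480), not called. The antibody's effect at 72 h was called for 6 of these 14 genes, all higher, with Asns at 2.14 ± 0.42 (SE, adjusted p = 0.00524) by edgeR and Atf4 at 0.76 (0.0516).

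Across the other comparisons the 6 lists together moved as follows. At 72 h of LPS against PBS, 0 genes of any list were called by edgeR. From 24 h to 72 h of LPS, 9 of 25 chaperone and folding genes, 7 of 20 degradation genes, 7 of 14 PERK branch genes, 11 of 23 translocation and glycosylation genes and 11 of 19 transport genes fell, where 16.4% of all genes were called lower. The exceptions in direction were Prdx4, Ero1lb and Ern1, which rose. LPS plus antibody at 24 h raised 5, 3, 7, 7 and 6 genes of the same 5 lists over PBS, in that order, and Ern1 and Derl3 fell; 11.7% of all genes were called higher, a share near that of the degradation list. At 72 h it raised 2, 1, 5, 5 and 7, and Derl3 fell; 6.81% of all genes were called higher, near the shares of the chaperone and degradation lists. The antibody's effect at 72 h was called higher for 5, 4, 6, 4 and 6, with Sdf2 lower, where 8.64% of all genes were called higher. Among the chaperones, Fkbp11 was at 1.99 ± 0.48 (SE, adjusted p = 0.0128) and the oxidase Ero1l at 1.15 ± 0.35 (SE, adjusted p = 0.0380) by edgeR, and Sdf2 at -0.78 ± 0.22 (SE, adjusted p = 0.0268). In the interaction, 2, 2, 3, 2 and 2 genes were called higher and 0 lower, where 4.03% of all genes were called higher.

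**Figure D5:**
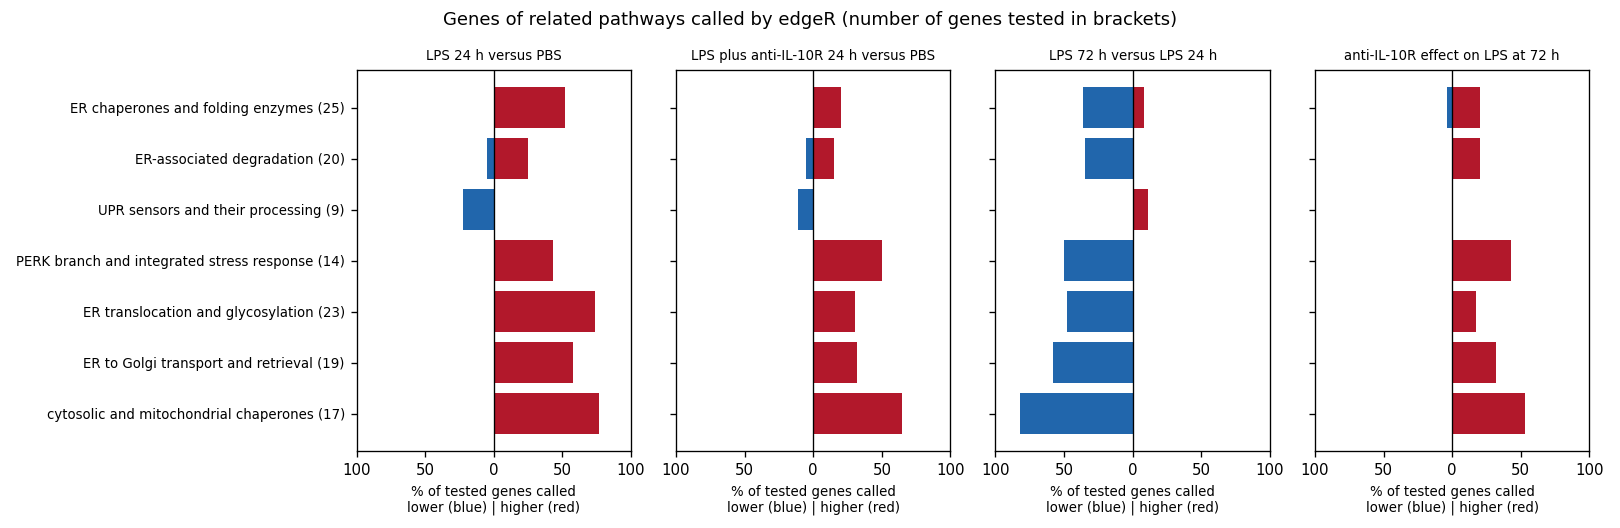
Bars give the percent of tested genes of each pathway list called higher (red, to the right) or lower (blue, to the left) by edgeR in 4 comparisons; the number of genes tested is in brackets. At 24 h of LPS, bars point right for all lists but the sensors, and from 24 h to 72 h of LPS they point mostly left.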

How the data were processed

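Polyadenylated RNA of sorted mouse HSPC was sequenced in 17 libraries. The authors deposited 1 table of raw counts per gene symbol; HISAT2 2.2.0, Subread, featureCounts 2.1.1, R 4.3.2, DESeq2 and GRCm38 are named in the submitters' processing notes, without roles. Annotation, strand setting and read filters are not given in the sources used here. All 17 columns matched a sample title. Groups came from the titles. The 10 genes, the lists and the rules were chosen with earlier results of these data known.

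Counts were fitted with edgeR 4.0.16 in R 4.3.3 (quasi-likelihood, TMM factors, filterByExpr with minimum count 10 and minimum total 15, 1 mean per group over all 17 libraries, 12 residual degrees of freedom), with Benjamini-Hochberg adjustment over 14920 genes. CPM values are TMM-scaled. DESeq2 1.42.0, limma 3.58.1 (voom with sample weights), other scalings, no filter, only the compared groups, a replicate block and each library left out were alternatives. The fit was tested on simulated data. Of each pathway list and comparison, the called genes with the steepest rise and the steepest fall were named, up to 2 each way, and Ern1, Eif2ak3, Atf6b, Atf4 and Ddit3 whatever their values; in the overview of the other comparisons, genes called against the direction of their list were also named after their values were seen. Positions and principal transcripts came from GENCODE vM21 on GRCm38. Of the marker genes, Ighm, Igkc and Azu1 were not used here. Between LPS at 24 h and PBS, libraries of the same number deviated together in every pair (correlations 0.158 to 0.191). Whether the numbers mark true pairs cannot be told from such values. The titles give the numbers and say nothing of a shared day. The main fit did not pair libraries, and the replicate block was an alternative.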

Additional observations from a re-analysis of the deposited data

Results flagged for a closer look

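The antibody's effect on Hspa5 differed between the times by 1.52 on the log2 scale (72 h minus 24 h, SE 0.43, adjusted p = 0.0474 by edgeR's quasi-likelihood test), a test of the difference itself. The effect was -0.42 ± 0.30 (SE) at 24 h and 1.10 ± 0.31 at 72 h, with 3 libraries in each of the 4 groups. At 72 h, all 3 antibody libraries were above all 3 of LPS alone, and at 24 h the groups overlapped. The call was kept in 4 of 12 fits with 1 library left out. At 24 h the summed granule markers were 9220 to 18922 CPM without antibody and 5105 to 13084 CPM with it, and at 72 h 6604 to 13499 and 4028 to 13402 CPM, and the dendritic cell markers 447 to 669 and 526 to 767 CPM at 24 h and, without overlap, 1165 to 1491 and 643 to 656 CPM at 72 h; the part of either in the difference was not tested. The dendritic cell list holds Flt3 and Irf8, which are also known in progenitors, and its Siglech, Ccr9 and Bst2 overlapped between these groups at 72 h. In the 5 PBS libraries, which are not among the 4 groups compared here, a test for a single outlying library found 0 in the 10 genes. The groups of 3 libraries were not tested in this way.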

How the results depend on the processing

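Upper-quartile scaling moved the median log2 difference of all genes from -0.03 to -0.16 at 24 h of LPS against PBS and from 0.02 to 0.13 between 72 h and 24 h of LPS. The number of the 10 genes called moved as follows. LPS plus antibody at 24 h against PBS gave 5 with voom and 5 with only the compared groups, 0 with the replicate block and 0 in an unblocked fit of libraries 1 to 3, added after seeing the data, where PBS libraries 4 and 5 are absent. Of all genes, these fits called 4211, 4143, 0 and 1393, in that order. LPS plus antibody at 72 h against PBS gave 3 with DESeq2, 2 with voom and 0 with only the compared groups, the block or that unblocked fit. There, 2840, 3053, 2363, 0 and 0 of all genes were called, in that order. The antibody's effect at 72 h gave 3 with voom, where 4433 of 14920 genes were called. With the block it gave 0, where 344 of 13855 genes were called. The interaction gave 0 with upper-quartile factors, no filter, voom, only the compared groups or the block. In these fits 875, 617, 1585, 286 and 44 of all genes were called, in that order. The causes were not tested.

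The replicate block, which pairs libraries by number, called 6 of the 10 genes at 24 h of LPS and 4 between 72 h and 24 h of LPS. It called 4776 of 14331 and 3404 of 13859 genes tested in these comparisons. Outside LPS at 24 h against PBS, not every pair's correlation was above 0.1 (lowest per comparison -0.36 to 0.07). Some pairs were more alike than that. Between 72 h and 24 h of LPS plus antibody, libraries 1 and 3 had correlations of 0.72 and 0.70, and library 2 had -0.02. In LPS plus antibody at 72 h against PBS the correlations were 0.07 to 0.20, and every library correlated best with its own number (6 of 6). Whether libraries of equal number share more than the number cannot be told from these values. With the block, Hspa5 had adjusted p of 0.195, 0.194, 0.0533 and 0.0604 in the 4 comparisons where its call was lost.

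Leaving out 1 library gave 0 to 4 of the 10 called for LPS plus antibody at 24 h against PBS, 0 to 2 at 72 h, 0 to 2 for the antibody's effect at 72 h, 3 to 7 for 72 h against 24 h of LPS and 0 to 1 for the interaction. Of all genes, 877 to 3420, 583 to 2066, 769 to 2279, 3199 to 4507 and 231 to 1544 were called, in that order. Log2 differences changed sign in the following ranges. For LPS at 72 h against PBS the ranges were -0.0386 to 0.19 (Hsp90b1), -0.13 to 0.00865 (Dnajb9), -0.38 to 0.0740 (Sdf2l1), -0.0785 to 0.23 (Manf) and -0.0126 to 0.29 (Atf6). For LPS plus antibody against PBS they were -0.0728 to 0.0792 (Herpud1) and -0.00402 to 0.0487 (Atf6) at 24 h, and -0.0173 to 0.79 (Pdia4) and -0.15 to 0.21 (Herpud1) at 72 h. For the antibody's effect they were -0.22 to 0.0381 (Dnajb9) and -0.37 to 0.10 (Xbp1) at 24 h, and -0.20 to 0.63 (Pdia4), -0.22 to 0.0576 (Dnajb9) and -0.0201 to 0.36 (Herpud1) at 72 h. For 72 h against 24 h with antibody they were -0.29 to 0.24 (Hspa5), -0.42 to 0.28 (Hsp90b1), -0.54 to 0.26 (Pdia4), -0.56 to 0.0614 (Sdf2l1), -0.33 to 0.0995 (Manf), -0.14 to 0.20 (Herpud1) and -0.36 to 0.29 (Xbp1). For the interaction they were -0.14 to 0.14 (Dnajb9) and -0.0696 to 0.28 (Atf6).

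Other settings that changed a sign were, by comparison, the following. With voom, Dnajb9 was 0.0226 at 72 h of LPS against PBS, Xbp1 0.0569 for the antibody's effect at 24 h, and Hspa5 -0.15 and Hsp90b1 -0.15 between the antibody times. With upper-quartile factors, Atf6 was -0.11 and Herpud1 -0.0401 in LPS plus antibody against PBS at 24 h and 72 h, Xbp1 0.00114 between the antibody times and Atf6 -0.0180 in the interaction. With no filter, Herpud1 was 0.0145 in LPS plus antibody at 24 h and Dnajb9 0.00639 in the interaction. With only the compared groups these 2 values were 0.00203 and 0.0127. With the block, Atf6 was -0.0329 in LPS plus antibody at 24 h, Hsp90b1 -0.0654 between the antibody times and Dnajb9 0.00375 in the interaction. Counts over all genes moved by more than 1.5 times for LPS at 72 h against PBS (3; voom 2170, DESeq2 170, only compared groups 99, block 84), LPS plus antibody against PBS at 24 h (3605; block 0, unblocked 1393) and 72 h (1975; voom 3053, block and unblocked 0), the antibody's effect at 72 h (2256; voom 4433, compared groups 1123, block 344) and the interaction (947; DESeq2 1710, voom 1585, no filter 617, only compared groups 286, block 44). With 1 library left out they were 0 to 3 for LPS at 72 h, 3361 to 5443 for LPS at 24 h (5616 with all), 877 to 3420 for LPS plus antibody at 24 h, 583 to 2066 at 72 h, 769 to 2279 for the antibody's effect at 72 h and 231 to 1544 for the interaction.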

Other observations

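Chaperones outside the ER rose as well. Of 17 cytosolic and mitochondrial chaperones tested, 13 rose and 0 fell at 24 h of LPS against PBS by edgeR's quasi-likelihood test. Of all genes, 19.1% were called higher there. The median log2 difference of the 17 was 0.87 beside -0.03 over all genes. Hspd1, the mitochondrial Hsp60, went from 469 ± 109 to 1379 ± 389 CPM (log2 1.55, SE 0.23, adjusted p = 0.000487), and its cochaperonin Hspe1 from 154 ± 35.2 to 444 ± 255 CPM (log2 1.53, SE 0.28, adjusted p = 0.00121). With antibody, 11 of the 17 rose over PBS at 24 h and 9 at 72 h, where 11.7% and 6.81% of all genes were called higher. With LPS alone 0 were called at 72 h, with 0.0201% of all genes called. From 24 h to 72 h of LPS, 14 fell, where 16.4% of all genes were called lower. Hspd1 fell by 1.95 and Hsph1, an Hsp110, by 1.82 on the log2 scale. The antibody's effect at 72 h was called higher for 9 of the 17, beside 8.64% of all genes. Hspd1 was at 1.48 ± 0.26 (SE, adjusted p = 0.00322) and the mitochondrial Hsp70 Hspa9 at 1.05 ± 0.14 (SE, adjusted p = 0.00122) by edgeR. The interaction was called higher for 8, beside 4.03% of all genes. In it, Hspd1 was at 1.87 ± 0.37 (SE, adjusted p = 0.0127) and Hsp90aa1, a cytosolic Hsp90, at 1.31 ± 0.32 (SE, adjusted p = 0.0287) by edgeR.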
